A study of Mus musculus with 6 samples.

Results

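The collagen chain genes are the protein-coding genes of the deposited table whose name is Col, a type number, the letter a and a chain number. By that rule 44 of the 48897 genes in the table belonged to the family. They were compared between PHx (partial hepatectomy, the surgical removal of part of the liver) and sham operation. RNA came from liver sinusoidal endothelial cells, the fenestrated lining of the liver's capillaries, of C57BL/6 mice aged 7 to 8 weeks, on day 14 after surgery, after purification on magnetic beads against CD146 (encoded by Mcam). Each group held 3 libraries, numbered 1, 3 and 4, and the labels do not say whether these came from separate animals, so each p-value refers to the spread among these 6 libraries, part or all of which may be technical.

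Collagens are secreted proteins in which alpha chains, each with a glycine at regular intervals, wind around one another into a helix, and they are the main structural proteins of the extracellular matrix. Fibrillar collagens build the banded fibres of connective tissue. Network collagens form the sheets of basement membranes, beaded filament collagens form microfibrils, FACIT collagens (fibril-associated collagens with interrupted helices) coat fibres, and transmembrane collagens sit in the cell surface. The healthy sinusoid has a sparse matrix with type IV collagen and no continuous basement membrane, and in liver scarring the fibrillar chains of types I and III come chiefly from stellate cells and portal fibroblasts.

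The upstream DNA of 3 chains that were higher after PHx is shown, 1 for each of type III, type I and type VI, because all 3 rose and they stand for 3 collagen types, of the fibrillar and beaded filament classes. The bases are from RefSeq's promoter windows on GRCm38.p6, on the strand of the gene and up to the RefSeq start, without the bases that GENCODE M21 places in an exon. They span chr1:45311288-45311537 on the plus strand for Col3a1, chr6:4505370-4505492 on the plus strand for Col1a2 and chr10:76726169-76726294 on the minus strand for Col6a1. Capitals mark the motif TATAAA (the letters of the TATA box), the motif CCAAT (the letters of the CCAAT box) and the motif GGGCGG (the letters of the GC box). They were searched on both strands at any position, and no matches overlap here. A match of letters does not show a working element, and this was not tested.
Col3a1: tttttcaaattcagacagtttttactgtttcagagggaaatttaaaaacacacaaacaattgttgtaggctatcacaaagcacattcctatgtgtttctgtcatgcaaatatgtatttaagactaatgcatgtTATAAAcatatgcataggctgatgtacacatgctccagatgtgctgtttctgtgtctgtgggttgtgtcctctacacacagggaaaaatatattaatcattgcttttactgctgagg
Col1a2: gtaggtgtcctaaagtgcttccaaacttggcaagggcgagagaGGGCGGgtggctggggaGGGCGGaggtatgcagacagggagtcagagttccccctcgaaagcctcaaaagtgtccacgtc
Col6a1: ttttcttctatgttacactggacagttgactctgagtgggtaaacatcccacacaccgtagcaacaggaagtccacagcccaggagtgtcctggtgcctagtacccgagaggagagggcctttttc
In Col3a1 the TATAAA began 117 bases before the RefSeq start. In Col1a2 the 2 GGGCGG matches began 205 and 188 bases before it, and a CCAAT began 109 bases before it, in bases that GENCODE M21 counts as exon and that are not printed. None of these letters was found in the 250 bases before the start of Col6a1. Windows were matched for 35 of the 44 chains, and Col1a1, Col2a1, Col4a3, Col5a2, Col9a3, Col12a1, Col14a1, Col22a1 and Col26a1 had none. TATAAA was in 5 of the 35 matched windows of 250 bases (14.3%) and in 12.4% of all 32851 windows, CCAAT in 34.3% and 33.8%, and GGGCGG in 60.0% and 32.7%. The median share of G and C was 59.2% in the matched windows and 52.4% in all windows. GGGCGG holds only G and C, and the part of this difference in its share was not tested. A chain has 1 window here, while other genes can have several. Among the 6 matched chains that were higher after PHx, 4 held GGGCGG, against 17 of 25 chains that were tested and not called, and the median share of G and C was 60.6% and 60.4%.

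The libraries held 48488625 to 49611423 counts in PHx and 38765116 to 51888481 in sham, and 3 counts, the limit that a count of 0 allows, corresponded to 0.0579 to 0.0795 CPM (counts scaled to the library total after TMM normalization). The 5 defining markers of the sinusoidal endothelium, Stab1, Stab2, Lyve1, Mcam and Pecam1, were each above 280 CPM in every library. The whole list of 11 genes summed to 16374 to 24980 CPM in PHx and 29001 to 31250 CPM in sham libraries, and Stab2, a scavenger receptor of these cells, averaged 4062 CPM in PHx and 6195 CPM in sham. None of the 11 passed edgeR's test, beside 0.0158% of all genes called lower, and 9 of them lay lower in every PHx library than in every sham library, beside 9.96% of all genes. Lyve1 and Mcam overlapped between groups, at means of 533 and 369 CPM in PHx and 478 and 342 CPM in sham.

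Of the 44 chains 37 passed the filter on low counts, 7 rose after PHx, none fell and 30 were not called at an adjusted p under 0.05 (edgeR's quasi-likelihood test, adjusted over all 19033 genes tested). Over all genes tested, 0.846% were called higher and 0.0158% lower. The chains that rose were Col1a2, Col3a1, Col5a1 and Col5a2 among the fibrillar collagens, Col6a1 and Col6a2 of type VI, and the FACIT chain Col16a1. In 21 of the 37 chains every PHx library lay above every sham library, as in 10.6% of all genes, and in 2 chains, Col4a3 and Col17a1, every PHx library lay below, as in 9.96% of all genes. The median log2 fold change of the 37 chains was 1.33, beside 0.03 over all genes tested, and 33 of the 37 were above 0, as were 53.0% of all genes tested. At an unadjusted p under 0.05, 23 chains were higher and 1, Col17a1, was lower, beside 7.93% and 4.73% of all genes tested. Col11a1 reached the filter's level of 0.204 CPM in no sham library, and Col6a4 and Col8a2 not in all of them, and a chain that passes only through its high group had to differ, so these counts describe the tested chains and not the whole family. DESeq2 called 19 chains higher, beside 3.8% of all genes it tested, and 1 lower, Col17a1 (adjusted p = 0.0095), beside 0.439%. Without Sham 4 edgeR called no chain, beside 0 genes higher and 0 lower over all genes. At an unadjusted p under 0.05 it then had 19 chains higher and 1 lower, beside 1240 and 1001 genes. Without Sham 3 edgeR called only Col3a1 (adjusted p = 0.0479), beside 6 genes higher and 1 lower over all genes.

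In bulk RNA, a change in the share of cells of a type and a change in RNA per cell cannot be told apart. Marker lists of other cells were measured in the same libraries. Of 13 stellate cell markers 7 rose and none fell in edgeR, beside 0.846% of all genes called higher and 0.0158% lower. The list summed to 2941 to 4403 CPM in PHx and 1437 to 2224 CPM in sham. Dcn was the largest term of this sum, at means of 1468 CPM in PHx and 670 CPM in sham. Reln came next, at 734 and 510 CPM, and neither was called. Of 8 portal fibroblast markers Thy1 rose, at means of 9.81 CPM in PHx and 3.49 CPM in sham. The list summed to 355 to 651 CPM in PHx and 159 to 254 CPM in sham. Its largest terms were Fbln2, at means of 272 and 132 CPM, and Eln, at 144 and 52.1 CPM, and neither was called. Of 8 smooth muscle markers Acta2, Tagln and Rgs5 rose, with sums of 751 to 994 CPM in PHx and 354 to 442 CPM in sham. On average Rgs5 was the largest term of this sum, at 587 CPM in PHx and 196 CPM in sham. Smtn came next, at 185 and 174 CPM, overlapped between groups and was not called. Of 7 mesothelial markers Msln and Upk1b rose, with sums of 102 to 190 CPM in PHx and 57.1 to 71.7 CPM in sham. Among the defining markers of these lists Reln, Eln, Myh11 and Wt1 were not called. No gene of these lists was at 0 in all libraries. Lrat, which stores retinol in stellate cells, averaged 152 CPM in PHx and 80.5 CPM in sham. The neutrophil list summed to 510, 20.9 and 3381 CPM in PHx 1, 3 and 4 and to 243, 128 and 19.9 CPM in Sham 1, 3 and 4, with no called gene. The hepatocyte list summed to 575 to 1167 CPM in PHx and 1045 to 1528 CPM in sham, the Kupffer cell list to 30.1 to 88.0 and 61.1 to 322 CPM, and the cholangiocyte list to 345 to 643 and 321 to 563 CPM, none with a called gene. The part of these cells in the collagen values was not tested.

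**Figure D1:**
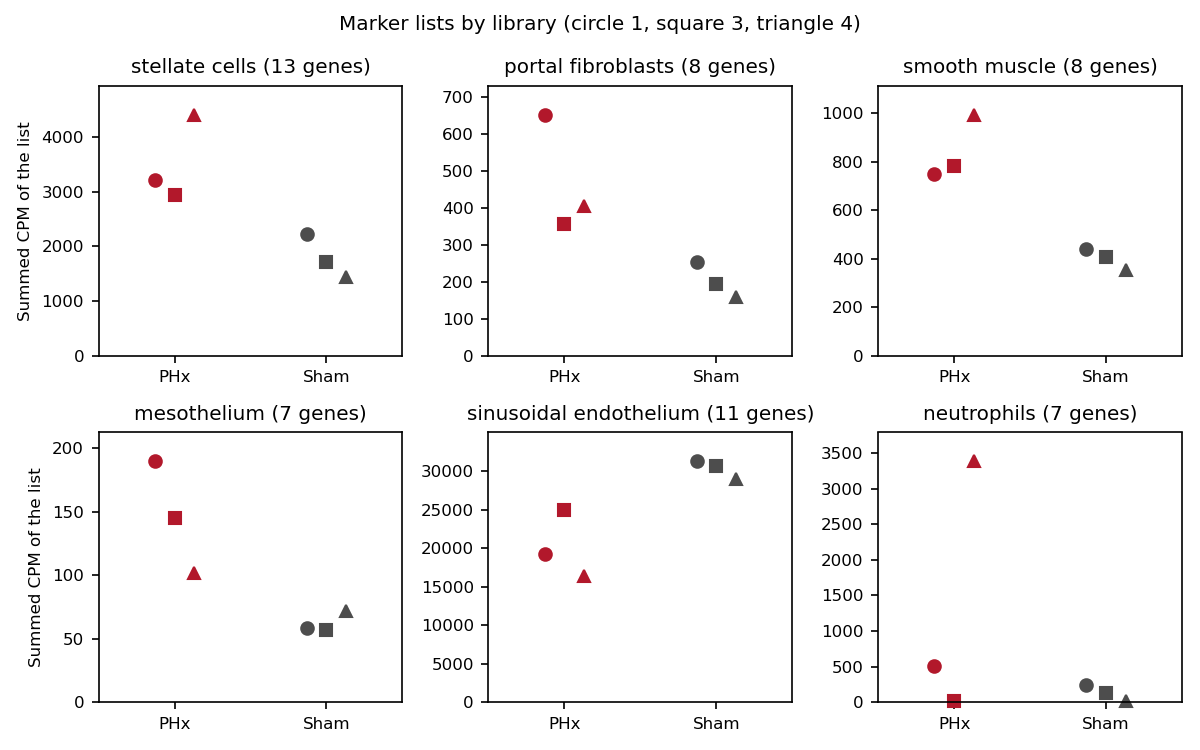
Summed CPM of 6 marker lists (vertical axes, from 0) in each PHx library (red) and each sham library (grey); circles, squares and triangles are libraries 1, 3 and 4. The stellate, portal fibroblast, smooth muscle and mesothelial sums lay higher in every PHx library than in every sham library, the sinusoidal endothelial sums lay lower, and the neutrophil sums overlapped, with 3381 CPM in PHx 4. Rgs5 was on average the largest term of the smooth muscle sums in both groups.

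Among the fibrillar chains 4 of 10 tested members rose in edgeR, and the class had a median log2 fold change of 2.08. Col3a1 (chr1:45311538-45349706, mm10), the chain of type III collagen in reticular fibres, stood at 1030, 1458 and 1431 CPM in PHx 1, 3 and 4, against 224, 212 and 251 CPM in Sham 1, 3 and 4. The groups were far apart, and PHx 1 was the lowest PHx library. Its log2 fold change was 2.51 ± 0.18 (SE, n = 3 per group; edgeR adjusted p = 0.00558). Col1a2 (chr6:4505618-4541543), the alpha 2 chain of type I collagen, stood at 735, 1274 and 617 CPM in PHx and 115, 127 and 141 CPM in sham (log2 fold change 2.78 ± 0.28, edgeR adjusted p = 0.0131). The groups did not overlap, and PHx 3 was above the other PHx libraries. Col1a1 (chr11:94936224-94953042), the alpha 1 chain that pairs with it, stood at 693, 1371 and 509 CPM in PHx and 49.4, 104 and 128 CPM in sham. Its log2 fold change of 3.19 ± 0.53 was above that of Col1a2 while the adjusted p was 0.0669 in edgeR and 2.36e-13 in DESeq2, and both groups spread widely, 2.69 times between the highest and the lowest PHx library and 2.59 times between the sham libraries. With at least 5 CPM required in 3 libraries Col1a1 passed in edgeR (adjusted p = 0.0496).

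Type V collagen, which is built into type I fibrils and starts their assembly, moved through both main chains. Col5a1 (chr2:27886395-28039510) stood at 271, 351 and 326 CPM in PHx, against 84.4, 67.7 and 60.0 CPM in sham (log2 fold change 2.16 ± 0.17, edgeR adjusted p = 0.00624). Col5a2 (chr1:45374331-45503282) stood at 267, 292 and 386 CPM in PHx and 102, 78.0 and 69.7 CPM in sham (1.92 ± 0.20, adjusted p = 0.0113). Neither chain overlapped between groups, and Col5a2 was highest in PHx 4, unlike Col1a1 and Col1a2, which were lowest there. Col5a3, the rarer chain of the type, stood at 12.9, 40.2 and 8.06 CPM in PHx and 4.40, 6.63 and 5.06 CPM in sham, with a log2 fold change of 1.92 ± 0.62 that did not pass in edgeR (adjusted p = 0.301, and 0.00322 in DESeq2). Without PHx 3 it was 0.96. Col3a1 and Col5a2 lie tail to tail on chromosome 1, 24624 bases apart.

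The remaining fibrillar chains are known mainly from cartilage and bone. Col11a1, a cartilage chain that can also join type V molecules, had 91, 496 and 28 counts in PHx 1, 3 and 4, against 1, 2 and 8 counts in Sham 1, 3 and 4. That is near the limit of detection in sham, and the fitted log2 fold change of 5.69 ± 1.35 (edgeR adjusted p = 0.159) was 3.87 without PHx 3 and 6.83 without Sham 4. Col24a1 stood at 10.5, 14.2 and 5.94 CPM in PHx and 2.89, 3.31 and 1.48 CPM in sham (2.00 ± 0.41, adjusted p = 0.0885, and 5.27e-05 in DESeq2). Col27a1 stood at 56.3, 59.6 and 62.1 CPM in PHx and 46.9, 51.5 and 46.4 CPM in sham, a log2 fold change of 0.30 ± 0.10 (adjusted p = 0.283). The Col27a1 groups were separated by a small step with little spread on either side. Col11a2 was at 0.47 ± 0.33 with overlapping groups, and Col2a1, the chain of cartilage type II, had at most 7 counts in any library and was not tested.

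**Figure D2:**
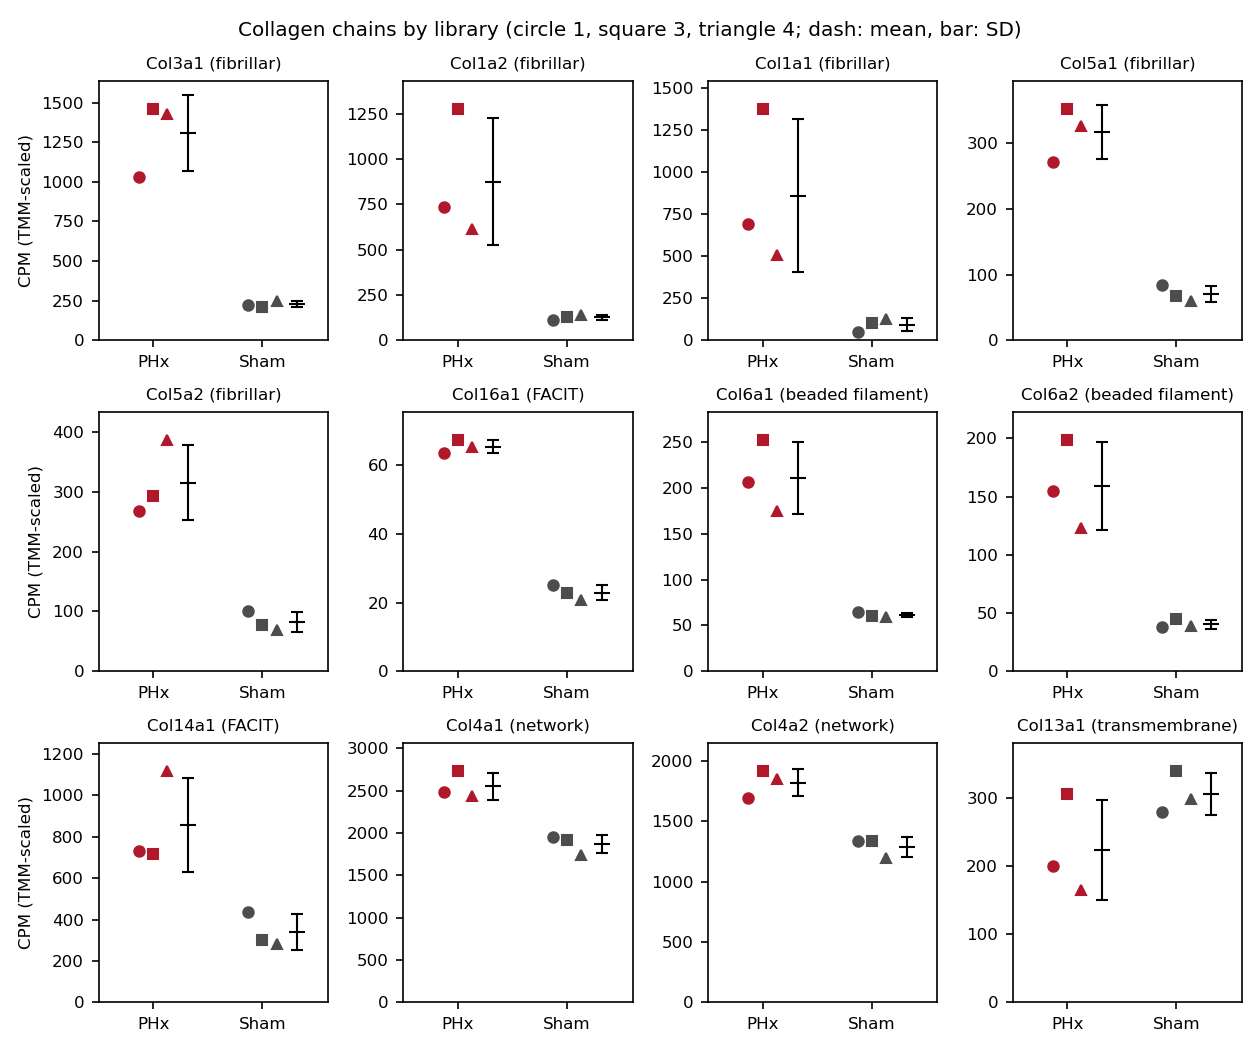
CPM of 12 collagen chains (vertical axes, from 0) in each PHx library (red) and each sham library (grey), with circles, squares and triangles for libraries 1, 3 and 4, a dash for the mean and a bar for the SD (n = 3). Every PHx library lay above every sham library in all panels except that of Col13a1; Col1a1 and Col1a2 were highest in PHx 3, and Col5a2 and Col14a1 were highest in PHx 4.

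Type VI collagen, a beaded microfibril that links cells to the surrounding matrix, is made of alpha 1, alpha 2 and a further longer chain. Col6a1 (chr10:76708792-76726044) stood at 207, 252 and 174 CPM in PHx and 64.2, 60.6 and 59.5 CPM in sham (log2 fold change 1.78 ± 0.15, edgeR adjusted p = 0.00624). Col6a2 (chr10:76595756-76623625) stood at 155, 198 and 123 CPM in PHx and 38.0, 45.1 and 38.8 CPM in sham (1.97 ± 0.18, adjusted p = 0.00861). These 2 chains rose, lie 85166 bases apart in the same direction on chromosome 10, and had PHx 3 as the highest and PHx 4 as the lowest PHx library. Col6a3, the longer chain of most type VI molecules, stood at 322, 320 and 186 CPM in PHx and 161, 124 and 81.1 CPM in sham, with groups that did not overlap (1.18 ± 0.31, adjusted p = 0.198, and 0.00325 in DESeq2). Of the chains that can take the place of alpha 3, Col6a5 stood at 6.65, 11.2 and 14.1 CPM in PHx and 2.39, 3.71 and 2.95 CPM in sham (1.82 ± 0.32, adjusted p = 0.0587, and 7.28e-06 in DESeq2). Col6a6 (1.33 ± 0.64) and Col6a4 (1.04 ± 1.10) overlapped between groups and were below 3 CPM in every library, and Col6a4 was at -0.09 without PHx 4. Col28a1, which resembles type VI in its domains, had at most 22 counts and was not tested.

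Among FACIT collagens, which attach to the surface of fibrils, 1 of 6 tested chains rose in edgeR. Col16a1 (chr4:130047426-130099277) stood at 63.7, 67.3 and 65.3 CPM in PHx and 25.2, 22.8 and 20.8 CPM in sham, with a log2 fold change of 1.51 ± 0.11 (edgeR adjusted p = 0.00558). Its PHx libraries lay within 1.06 times of each other, the narrowest PHx spread of the 37 tested chains, and its change was the smallest among the 7 called. Col14a1 (chr15:55307694-55520803), the most abundant FACIT chain here, stood at 733, 717 and 1117 CPM in PHx and 438, 300 and 281 CPM in sham (1.33 ± 0.24, adjusted p = 0.0632). It was highest in PHx 4. Col12a1, its close relative in tendon and stressed connective tissue, stood at 33.3, 61.8 and 11.6 CPM in PHx and 0.504, 2.82 and 3.15 CPM in sham. The fitted log2 fold change of Col12a1 was 4.03 ± 0.93 (adjusted p = 0.187), with a spread of 5.31 times among PHx libraries and 6.25 times among sham libraries, and was 3.36 without PHx 3. DESeq2 called Col12a1, Col14a1 and Col11a1 (adjusted p = 0.000812, 1.20e-05 and 0.00101).

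Other FACIT chains did not separate the groups. Col20a1 stood at 9.79 to 11.4 CPM in PHx and 9.46 to 11.2 CPM in sham, a log2 fold change of 0.0038 ± 0.16 whose sign depended on the scaling. The type IX chains Col9a2 (1.58 ± 0.91) and Col9a3 (0.53 ± 0.43) were under 5 CPM in every library, and Col9a2 was at 0.43 without PHx 3. Col19a1 and Col22a1 had at most 4 counts and were not tested, and Col9a1, like Col26a1, had no count in any library.

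Network collagens took the largest part of the collagen counts in both groups on average, and edgeR called none of their 8 tested chains, while DESeq2 called Col4a2, Col4a5 and Col4a6 higher. Per length, Col4a1 (chr8:11198423-11312826) was the highest of the 44 chains in both groups, with 346 ± 19.7 RPKM (counts scaled to gene length and library total) in PHx and 247 ± 13.6 RPKM in sham (SD, n = 3), and Col4a2 (chr8:11312805-11449287) was next, with 285 ± 6.44 RPKM in PHx and 197 ± 12.1 RPKM in sham. These chains form the common type IV molecule of vessel basement membranes. Col4a1 stood at 2483, 2728 and 2436 CPM in PHx and 1950, 1913 and 1745 CPM in sham (log2 fold change 0.45 ± 0.14, edgeR adjusted p = 0.266). Col4a2 stood at 1693, 1914 and 1852 CPM in PHx and 1333, 1334 and 1194 CPM in sham (0.50 ± 0.14, adjusted p = 0.192, and 0.0216 in DESeq2). The groups did not overlap for either chain, and the log2 fold changes were smaller than in any of the 7 called chains.

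Type IV genes are arranged in head-to-head pairs, and in the deposited coordinates Col4a1 and Col4a2 overlap by 22 bases and Col4a4 and Col4a3 by 7. Both members of a pair had the same sign. Col4a3 and Col4a4, chains known from the basement membranes of kidney, lung and inner ear, did not pass the test, at -1.19 ± 0.77 for Col4a3 and -0.76 ± 0.55 for Col4a4 on the log2 scale (edgeR adjusted p = 0.553 and 0.590). Col4a3 stood at 4.54, 6.31 and 0.521 CPM in PHx and 7.58, 8.49 and 9.96 CPM in sham, and Col4a4 at 6.70, 6.10 and 1.52 CPM in PHx and 5.35, 8.04 and 10.9 CPM in sham. Both chains were far lower in PHx 4 than in the other PHx libraries. Col4a5 and Col4a6, 1293 bases apart on the X chromosome, stood at 1.20 ± 0.35 for Col4a5 and 1.49 ± 0.42 for Col4a6, which did not pass in edgeR (adjusted p = 0.239 and 0.200) and passed in DESeq2 (adjusted p = 0.0173 and 0.0103). Col4a5 stood at 3.49, 3.93 and 1.97 RPKM in PHx and 0.787, 1.76 and 1.43 RPKM in sham, without overlap.

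Type VIII collagen forms hexagonal networks in vessel walls and under the corneal endothelium. Col8a1 stood at 32.2, 15.4 and 9.14 CPM in PHx and 8.75, 6.36 and 9.45 CPM in sham (1.21 ± 0.46, edgeR adjusted p = 0.356), and Col8a2 at 3.44, 4.57 and 0.854 CPM in PHx and 0.345, 0.193 and 1.32 CPM in sham (2.24 ± 0.87, adjusted p = 0.361). Both overlapped between groups through PHx 4. Col8a1 was at 0.58 without PHx 1, and Col8a2 at 3.42 without Sham 4. Col10a1, the network chain of growth plate cartilage, had at most 5 counts and was not tested, and it lies wholly within Nt5dc1 on the opposite strand.

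EdgeR called none of the 4 tested transmembrane chains and DESeq2 called Col17a1 lower, and 2 of them had a negative log2 fold change. Col13a1 (chr10:61838234-61979210), a chain of cell adhesion sites, stood at 201, 306 and 165 CPM in PHx and 280, 340 and 299 CPM in sham, and the groups overlapped (-0.45 ± 0.23, edgeR adjusted p = 0.454). Per length it stood at 32.7 ± 10.1 RPKM in PHx, rank 10 of the 44 chains, and at 43.7 ± 4.84 RPKM in sham, rank 4 (SD, n = 3). Col17a1 (chr19:47646341-47692042), which anchors epithelial cells to their basement membrane, stood at 1.24, 2.91 and 1.27 CPM in PHx and 4.16, 4.87 and 5.77 CPM in sham. All PHx libraries of Col17a1 lay below all sham libraries, with a log2 fold change of -1.45 ± 0.40 (edgeR adjusted p = 0.197, and 0.0095 in DESeq2). Col23a1 (0.22 ± 0.34) and Col25a1 (0.82 ± 0.54) stayed under 10 CPM with overlapping groups.

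Multiplexins, collagens of basement membranes that carry glycosaminoglycan chains, had no member called by edgeR, while DESeq2 called Col15a1. Col15a1 stood at 14.0, 27.2 and 14.1 CPM in PHx and 4.03, 7.25 and 5.10 CPM in sham (1.75 ± 0.34, edgeR adjusted p = 0.0753, and 2.58e-05 in DESeq2). Col18a1, whose end fragment is endostatin, stood at 62.3, 34.2 and 68.1 CPM in PHx and 30.0, 47.8 and 39.2 CPM in sham, with overlap (0.49 ± 0.29, adjusted p = 0.514). Col15a1 was highest in PHx 3, where Col18a1 was lowest. Col7a1, the chain of anchoring fibrils of the skin, stood at 3.54, 10.3 and 2.60 CPM in PHx and 1.75, 2.69 and 2.93 CPM in sham (1.16 ± 0.54, adjusted p = 0.422), with overlap through PHx 4, and was at 0.31 without PHx 3.

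**Figure D3:**
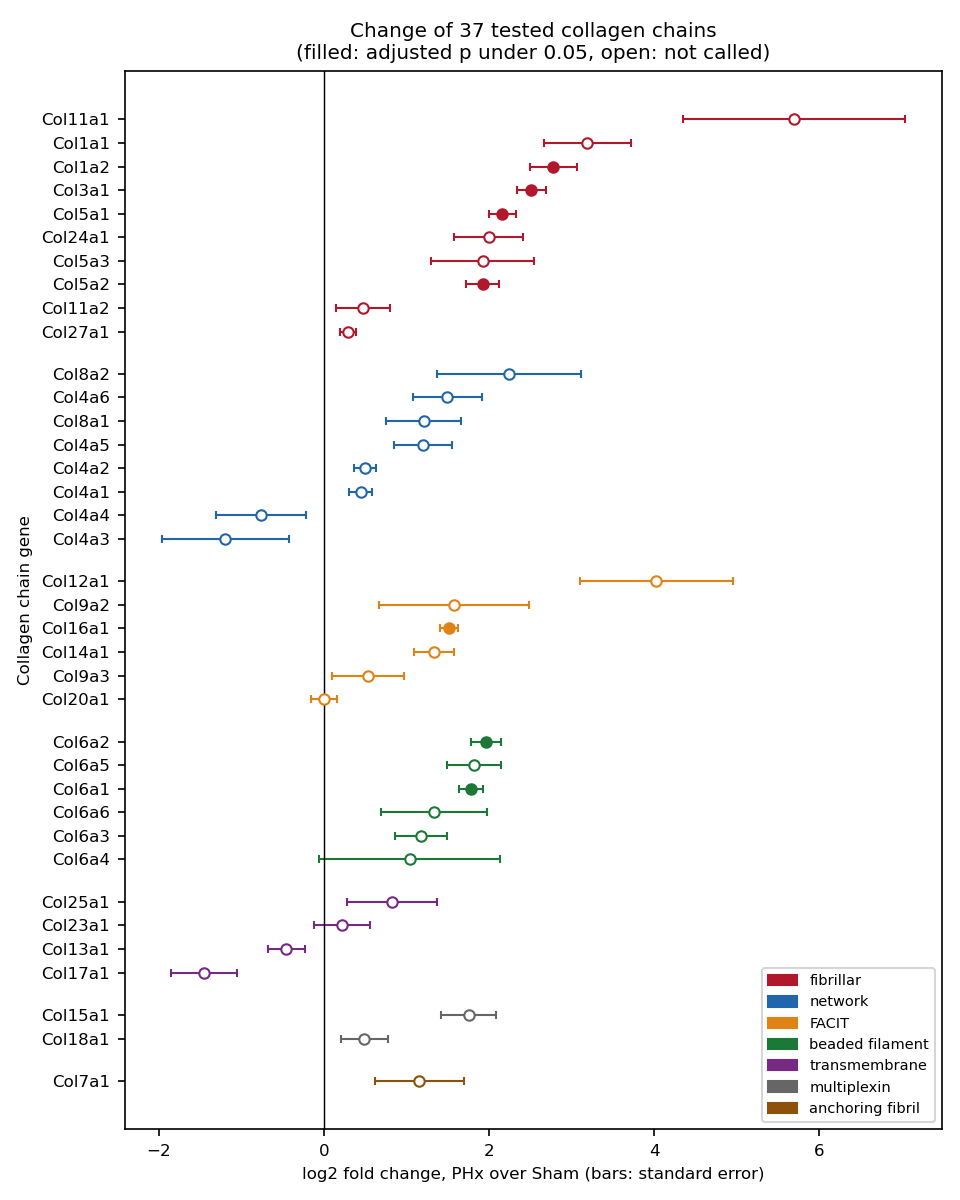
Log2 fold change of PHx over sham (horizontal axis, bars are SE) for the 37 tested collagen chains, grouped and coloured by class; filled circles passed an adjusted p under 0.05 and open circles did not. Of 37 chains 33 lay above 0 and the 7 filled ones were fibrillar, FACIT or beaded filament chains; the value near 0 is Col20a1, whose sign depended on the scaling.

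Summed over the 44 genes, collagen chains took 0.975%, 1.14% and 0.954% of all counts in PHx 1, 3 and 4, against 0.488%, 0.490% and 0.450% in Sham 1, 3 and 4. The composition differed along with the total. Fibrillar chains made up 33.7%, 42.0% and 34.8% of the collagen counts in PHx libraries and 12.6%, 13.3% and 15.5% in sham libraries. Network chains made up 46.4%, 40.5% and 44.8% in PHx and 66.1%, 66.8% and 65.6% in sham, although their share of all counts was 0.448% ± 0.018 in PHx and 0.315% ± 0.017 in sham (SD, n = 3). Fibrillar chains took 0.380% ± 0.0865 of all counts in PHx and 0.0655% ± 0.0041 in sham, FACIT chains 0.0981% ± 0.0187 and 0.0372% ± 0.0080, and beaded filament chains 0.0668% ± 0.0150 and 0.0225% ± 0.0040. Transmembrane chains, nearly all Col13a1, took 0.0235% ± 0.0069 in PHx and 0.0313% ± 0.0033 in sham. Without the type IV chains Col4a1 and Col4a2, collagens took 0.582% ± 0.090 of counts in PHx and 0.165% ± 0.005 in sham. Longer genes collect more counts at the same level, so these shares are shares of sequenced fragments, not of molecules.

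**Figure D4:**
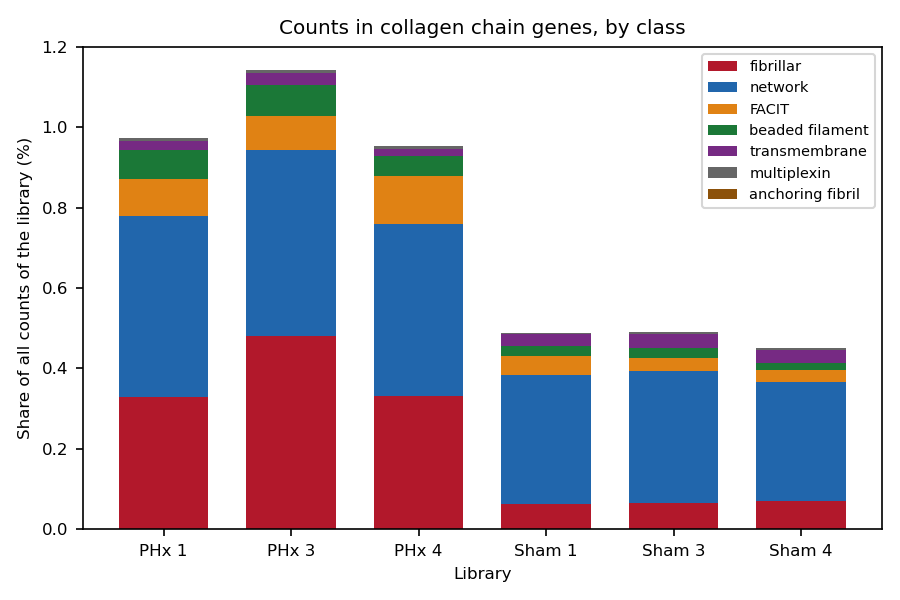
Share of all counts of a library in collagen chain genes (vertical axis, percent, from 0), stacked by class, for the 3 PHx libraries on the left and the 3 sham libraries on the right. The stacks reach 0.954% to 1.14% in PHx and 0.450% to 0.490% in sham, with the fibrillar part at the bottom and the network part above it.

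Levels per length showed how the order of chains differed. After Col4a1 and Col4a2, the order in PHx was Col3a1 at 236 ± 34.2 RPKM, Col1a2 at 169 ± 63.8, Col1a1 at 146 ± 73.6 and Col14a1 at 122 ± 30.1 (SD, n = 3). Within each PHx library Col3a1 was above Col1a2 and Col1a2 above Col1a1. Both Col1a2 and Col1a1 were above Col14a1 in PHx 1 and 3 and below it in PHx 4, so neither differed from Col14a1 beyond the spread. In sham the next chain was Col14a1 at 47.3 ± 11.3 RPKM, before Col13a1 at 43.7 ± 4.84, Col3a1 at 40.6 ± 3.54, Col1a2 at 24.1 ± 2.67 and Col1a1 at 15.7 ± 6.82. The order of Col14a1, Col13a1 and Col3a1 changed between sham libraries, so these did not differ beyond their spread, while in each sham library Col3a1 lay above Col1a2 and Col1a2 above Col1a1.

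Ratios of chains that share a molecule or can replace each other were compared within each library, as RPKM over RPKM, for 9 pairs. With 3 libraries against 3 an exact two-sided permutation test cannot go below p = 0.10, so no pair could pass. The ratio of Col4a2 to Col4a1 was nearly constant, at 0.788, 0.812 and 0.880 in PHx and 0.790, 0.807 and 0.792 in sham. That of Col6a2 to Col6a1 was 0.519, 0.545 and 0.489 in PHx and 0.408, 0.514 and 0.450 in sham, and that of Col5a1 to Col5a2 was 0.790, 0.935 and 0.658 in PHx and 0.647, 0.676 and 0.670 in sham. All 3 pairs overlapped between groups. Col1a1 to Col1a2 stood at 0.831, 0.948 and 0.727 in PHx and 0.379, 0.721 and 0.800 in sham, with Sham 1 apart from the other sham libraries. Col3a1 to Col1a1 stood at 1.58, 1.13 and 2.99 in PHx and 4.83, 2.16 and 2.09 in sham, overlapping through PHx 4. The ratio of Col6a3 to Col6a1 was 0.571, 0.466 and 0.391 in PHx and 0.919, 0.750 and 0.500 in sham. Col18a1 to Col15a1 was the only pair without overlap, at 3.51, 0.993 and 3.82 in PHx and 5.88, 5.20 and 6.07 in sham (exact permutation p = 0.10, the smallest possible, and 0.386 adjusted over 9 pairs). Its log2 difference was -1.27, and -0.64 without PHx 3. The ratio of Col4a5 to Col4a1 was 0.0098, 0.011 and 0.0061 in PHx and 0.0031, 0.0069 and 0.0062 in sham, and that of Col8a2 to Col8a1 was 0.104, 0.290 and 0.0914 in PHx and 0.0386, 0.0298 and 0.137 in sham, a log2 difference of 1.38, and 2.05 without Sham 4.

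The PHx libraries did not carry the collagens in equal measure. Of the 37 tested chains 23 were highest in PHx 3, 9 in PHx 4 and 5 in PHx 1, while 20 were lowest in PHx 4, 10 in PHx 1 and 7 in PHx 3. The spread among PHx libraries was narrow in the called chains, with a median coefficient of variation of 18.5% (2.78% to 40.1%), and wider in the 30 chains not called, with a median of 41.9% (4.96% to 125%). In sham the medians were 9.75% and 30.3%. The called chains also rested on more counts, with a mean of at least 22.9 CPM in sham, while the chains not called had a median of 5.15 CPM there, although Col4a1 and Col4a2 were among them. The call is computed from the spread and the counts of these same libraries. Both differences were therefore largely set by the test and describe the call more than the chains. The highest PHx library exceeded the lowest 24.4 times in Col6a4, 17.9 times in Col9a2, 17.4 times in Col11a1, 12.1 times in Col4a3, 5.35 times in Col8a2 and 5.31 times in Col12a1. PHx 3 was the highest and PHx 4 the lowest of the PHx libraries in these chains except Col6a4, where PHx 4 was the highest and PHx 3 the lowest, at a maximum of 24 counts. Of the marker sums, the stellate one was 3215, 2941 and 4403 CPM in PHx 1, 3 and 4, the portal fibroblast one 651, 355 and 406 CPM, and the mesothelial one 190, 145 and 102 CPM. The smooth muscle sum was highest in PHx 4 through Rgs5 (459, 509 and 794 CPM), while Acta2 (39.0, 38.4 and 24.1 CPM) and Tagln (6.49, 7.13 and 4.90 CPM) were lowest there. Their part in the spread of the collagen chains was not tested.

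**Figure D5:**
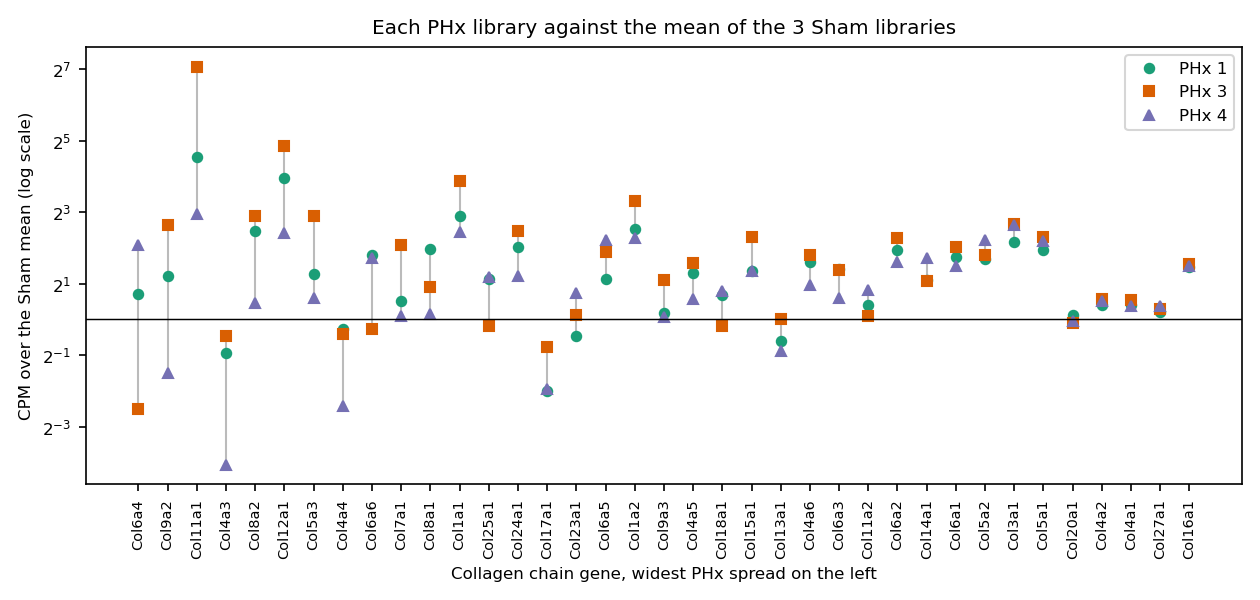
CPM of each PHx library divided by the mean of the 3 sham libraries (vertical axis, log scale; the line at 1 is the sham mean) for the 37 tested chains, ordered by the spread among PHx libraries with the widest on the left. PHx 3 (squares) is often the highest and PHx 4 (triangles) the lowest; values of Col11a1 and Col6a4 rest on sham means near the level of 3 counts, and Col16a1 at the right edge has the narrowest spread.

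Genes that make, cross-link, bind or cut collagen were measured in the same fit, as a list of 72 genes. Of the 70 tested 16 rose, none fell and 54 were not called in edgeR, beside 0.846% of all genes called higher and 0.0158% lower, with a median log2 fold change of 0.63 beside 0.03 over all genes tested. Cross-linking oxidases had the largest fraction, 3 of 5, with Lox at 2.41 ± 0.22, Loxl1 at 2.15 ± 0.23 and Loxl2 at 1.03 ± 0.14 (edgeR adjusted p = 0.00861, 0.0139 and 0.0273). Of 7 tested genes that trim the propeptides of fibrillar collagens 2 rose, the C-terminal proteinase Bmp1 (1.82 ± 0.16) and the N-terminal proteinase Adamts2 (1.54 ± 0.19). Of 15 hydroxylases, glycosyltransferases and partners only Plod2 (2.03 ± 0.14), a lysyl hydroxylase, rose, and of 9 folding and secretion genes the chaperones Fkbp10 (1.48 ± 0.19) and Serpinh1 (0.90 ± 0.14) rose. Of 8 fibril partners Fn1, Lum and Fmod rose (1.69 ± 0.14, 1.68 ± 0.20 and 1.99 ± 0.30), of which Lum is also on the stellate cell list. The fibril partner Dcn, which was not called, is on that list too. Of 9 tested collagen receptors Mrc2 (1.94 ± 0.23), which takes up collagen fragments, rose. Of 8 genes of collagen breakdown and its control the gelatinase Mmp2 (2.06 ± 0.18) and the inhibitors Timp2 (1.04 ± 0.11) and Timp1 (2.65 ± 0.31) rose, and of 9 basement membrane partners of type IV collagen the laminin chain Lamc1 (0.82 ± 0.12, adjusted p = 0.0363) rose. The medians were 0.11 for the hydroxylation list, 0.11 for folding and secretion, 1.17 for propeptide cleavage, 1.03 for cross-linking, 0.98 for fibril partners, 0.85 for receptors, 1.67 for breakdown and -0.06 for basement membrane partners. Of the breakdown list, Mmp8 (39.1, 1.88 and 273 CPM in PHx 1, 3 and 4) and Mmp9 (77.6, 3.62 and 425 CPM), collagenase and gelatinase known from neutrophils, were ordered like the neutrophil sums. Without them the median was 1.16, and their part was not tested further.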

How the data were processed

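Per the labels' protocols, RNA of bead-purified cells was sequenced in read pairs. Per the submitters' processing notes, mm10 (GRCm38), TopHat2 2.0.13 and bcl2fastq were used; the counting program, annotation and use of strand are not given in the sources used here, so reads of overlapping or antisense genes cannot be told apart. The authors deposited whole-number counts and RPKM values; RPKM equalled the count per length and library total in 100% of values (relative tolerance 1e-06), and serves here only for levels and ratios between chains. The main test, on counts of all genes, was that of edgeR 4.0.16 under R 4.3.3 (TMM scaling, filterByExpr, robust quasi-likelihood F-test, group as the only term, Benjamini-Hochberg adjustment over 19033 genes). SE is the absolute log2 fold change over the square root of F; CPM is TMM-scaled. The code was checked on counts simulated with the fit's own dispersions, which cannot show whether the model holds for these libraries. Gene names turned into dates (27) were restored. The members, classes, gene lists and tests were chosen with earlier results of these data known. All members are named. Of pathway genes, up to 3 called per list by smallest adjusted p are named, and Mmp8, Mmp9 and Dcn besides. Of marker lists, all defining markers of the endothelium are named and only some of the other lists, with Rgs5, Smtn, Fbln2, Dcn and Lum besides. Alternatives were other scalings and filters, DESeq2 1.42.0, limma-voom 3.58.1, a stricter threshold, the replicate block and leaving out each library. Limits on counts cover counting error only.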

Additional observations from a re-analysis of the deposited data

How the results depend on the processing

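The 7 chains called higher stayed above 0 on the log2 scale, each at an unadjusted p under 0.05, in every alternative fitted. The number of chains called higher was 7 with limma-voom and with scaling by the upper quartile or the median of ratios, 8 with the 5 CPM filter and 5 at an adjusted p under 0.01. It was 11 with no low-count filter and 19 with DESeq2, which also called 1 chain lower. Over all genes, 161 higher and 3 lower became 359 and 30 with no low-count filter, 728 and 84 with DESeq2, and 16 and 1 at an adjusted p under 0.01. DESeq2 without Sham 4, chosen after the data were seen, called 16 chains, and 561 genes higher and 53 lower. With 1 library left out at a time edgeR called 0 to 8 chains, 0 to 160 genes higher and 0 to 9 lower. Without Sham 4, with 0 calls, 1240 genes were higher and 1001 lower at an unadjusted p under 0.05. Without Sham 1, 5 chains were called, beside 34 genes higher and 2 lower. Without Sham 3, 1 chain was called, beside 6 genes higher and 1 lower. With the replicate number as a block 4 chains (Col16a1, Col3a1, Col6a1 and Col6a2) and 14 genes were higher and 1 gene was lower. Deviations of libraries with the same number correlated at -0.09, -0.23 and 0.03, so the numbers were not treated as pairs. The sign of Col20a1 turned with scaling by the median of ratios (-0.0015) or the upper quartile (-0.030), no low-count filter (-0.027), DESeq2 (-0.0084) and limma-voom (-0.0033). Leaving out each library gave -0.087 to 0.042 for Col20a1, -0.13 to 0.46 for Col23a1 and -0.093 to 1.71 for Col6a4. None of the 9 chain ratios turned its sign, and the collagen share of counts stayed 0.488 to 0.583 percentage points higher in PHx. The cause of these shifts was not tested; fits without a library hold fewer samples, and the stricter threshold shows its own cause. In sham, 3 of the 37 chains did not reach the filter's level in every library. The breakdown list's median without Mmp8 and Mmp9 was also chosen after the data were seen.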
